A study of Mus musculus with 6 samples.

Results

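Hemidesmosomes are the rivet-like junctions by which basal cells of a stratified epithelium hold on to the basement membrane. Outside the cell, the integrin made of the α6 and β4 chains and the transmembrane collagen XVII bind laminin-332, a trimer that includes the α3 and β3 chains, and collagen VII forms the anchoring fibrils that tie this layer to the stroma beneath. Inside the cell, the plakin linkers plectin and dystonin (BPAG1) connect the integrin to keratin filaments. In the cornea and limbus these junctions keep the epithelium, and the basal layer in which its stem cells lie, attached to the eye surface.

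The 9 genes described here are the rows of the deposited expression table, of 39089 in all, that bear the symbols Itga6, Itgb4, Col17a1, Cd151, Plec, Dst, Lama3, Lamb3 and Col7a1. They were chosen by name, and all 9 passed the filter on low counts. RNA was measured in limbus tissue of wild-type (WT) mice in 6 samples. In 3 of them, the mice had received L-733,060, which blocks NK1, the receptor of the neuropeptide substance P, into the space under the conjunctiva on days 0 and 3. The 3 control samples came from mice given sterile water by the same route, and the tissue was collected after a week. The labels give neither the days of the control injections nor the age, sex or number of the mice. They also do not say that samples are separate animals, so p-values measure the spread between these samples only, which may be technical. The question is which genes of epithelial attachment differ in RNA level when this receptor is blocked.

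Total counts per sample ran from 18708288 to 23541791, and each of the 9 genes had at least 513 counts in every sample. Values for 1 gene across samples are normalised CPM, that is counts scaled to library size after TMM normalisation. Levels of different genes are set side by side only as the authors' TPM, which is per length. Libraries also differed in a way that follows base composition. Across 11203 genes, the deviation of a sample from its group mean had a Spearman correlation with transcript GC content of -0.48 in control 2, 0.64 in L-733,060 sample 3 and -0.66 in L-733,060 sample 2, and of -0.09 to 0.38 in the other samples. These are correlations over genes of 1 library, given as a description. Each result below that moves with these libraries is therefore given with its value without them or with an offset for GC content and transcript length. Over the same 11203 genes, the log2 fold change of L-733,060 over control had a Spearman correlation of -0.33 with GC content. Genes of high GC content thus tended to be lower with L-733,060. This trend is confounded with group, and its cause was not tested.

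Of the 9 genes, Lamb3, Itga6 and Lama3 rose and Col17a1 fell with L-733,060, with 0.05 as the limit on the adjusted p of the quasi-likelihood F test in edgeR. Cd151, Dst, Itgb4, Col7a1 and Plec did not pass. Over all 15712 tested genes, 41.3% passed, with 21.4% higher and 19.9% lower, so 4 of 9 is near the share of all genes. The groups did not overlap for Lamb3, Itga6 and Col17a1, 2 higher and 1 lower of 9 genes, against 52.0% of all tested genes (26.6% higher and 25.4% lower). The median log2 fold change was -0.03 over the 9 genes and -0.00164 over all tested genes.

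**Figure D1:**
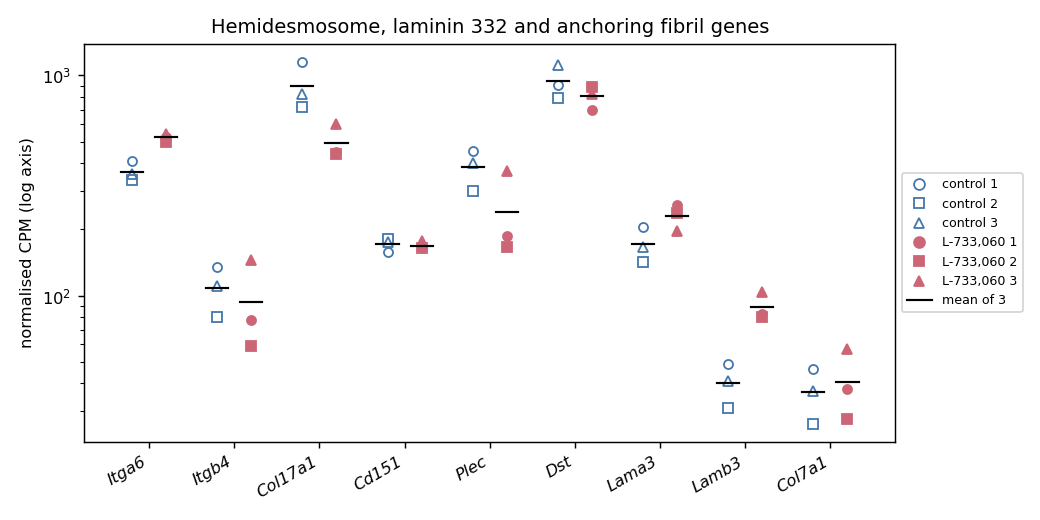
Normalised CPM (log axis) of the 9 genes in each sample, with open symbols for the 3 controls, filled symbols for the 3 L-733,060 samples and a bar at the mean of 3. The groups are apart for Itga6, Col17a1 and Lamb3, and L-733,060 sample 3 (filled triangle) stands above samples 1 and 2 for Itgb4, Plec and Col7a1.

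The gene with the largest rise of the 9 was Lamb3, and the one that fell was Col17a1. The bases before their transcription starts are shown because these genes moved in opposite directions. The sequences are from RefSeq, build GRCm38.p6, and are written 5′ to 3′ on the strand of the gene. Capitals mark matches to the TATA box letters TATAAA.
Lamb3, chr1:193301744-193301993, plus strand: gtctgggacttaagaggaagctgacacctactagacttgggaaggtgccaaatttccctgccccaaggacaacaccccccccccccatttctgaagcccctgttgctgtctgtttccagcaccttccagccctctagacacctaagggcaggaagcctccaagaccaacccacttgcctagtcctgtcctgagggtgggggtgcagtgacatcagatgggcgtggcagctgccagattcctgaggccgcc
Col17a1, chr19:47692043-47692292, minus strand: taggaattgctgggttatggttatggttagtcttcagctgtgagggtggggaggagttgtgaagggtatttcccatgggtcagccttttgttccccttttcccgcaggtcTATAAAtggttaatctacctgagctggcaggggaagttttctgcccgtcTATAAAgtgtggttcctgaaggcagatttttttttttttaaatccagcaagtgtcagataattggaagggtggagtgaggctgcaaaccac
Each run covers the 250 bases before a start, and a second RefSeq start of Lamb3 lies at position 193302243. Both Lamb3 starts, and the run shown, lie inside the span of the deposited Lamb3 row, which begins at 193294353. Which start was used in these samples cannot be told from counts per gene. GC content was 58.8% in the Lamb3 run and 46% in the Col17a1 run. Col17a1 held TATAAA at 2 places, with first bases 140 and 91 before the start, and Lamb3 held none. Searched on both strands, neither run held the AP-1 letters TGANTCA, the GC box GGGCGG or the E-box CACGTG. Over 32851 promoters of this length, TATAAA was present in 12.4%, TGANTCA in 6.75%, GGGCGG in 32.7% and CACGTG in 6.02%. RefSeq promoters were matched for 5 of the 9 genes.

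Of the integrin chains, Itga6 passed the threshold and Itgb4 did not, and the ratio of the genes is given with the other partner ratios. Itga6 encodes the α6 chain, which pairs with β4 in hemidesmosomes and with β1 elsewhere (chromosome 2, 71786886 to 71858427, plus strand, mm10). Its level was 408, 334 and 355 CPM in controls 1 to 3, and 528, 500.2 and 541 CPM in L-733,060 samples 1 to 3. All 3 L-733,060 samples lay above all controls, and Itga6 was 1.43-fold higher (from 366 ± 37.9 to 523 ± 21.0 CPM as mean ± SD of n = 3; edgeR log2 fold change 0.52 with SE 0.12 and adjusted p = 0.00476). With each sample left out in turn its log2 fold change stayed between 0.43 and 0.60, with adjusted p of at most 0.0325.

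Itgb4 encodes the β4 chain, whose long cytoplasmic tail binds plectin (chromosome 11, 115974725 to 116008412, plus strand). It measured 135, 80.1 and 111 CPM in controls and 77.5, 58.8 and 145 CPM with L-733,060. The highest and the lowest of all 6 values were both in the L-733,060 group, in samples 3 and 2. The log2 fold change was -0.21 (SE 0.28, adjusted p in edgeR = 0.581). Without L-733,060 sample 3 it was -0.69 (adjusted p = 0.00456), and without sample 2 it was 0.035 (adjusted p = 0.930), so single libraries set both its direction and its call. The transcript of Itgb4 has a GC content of 60.0%, against a median of 50.0% over genes. Galk1 and the noncoding B230344G16Rik overlap Itgb4 on the other strand with 757 and 383 counts over all samples, 5.74% and 2.91% of the Itgb4 counts. Whether reads were counted by strand is not given here, so reads of such pairs cannot be told apart.

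Col17a1 encodes collagen XVII, the transmembrane collagen of hemidesmosomes also known as BP180 (chromosome 19, 47646341 to 47692042, minus strand). It measured 1150.2, 717 and 822 CPM in controls and 447, 439 and 599 CPM with L-733,060. Every L-733,060 sample lay below every control, and the level was 1.81-fold lower (896 ± 226 to 495 ± 89.8 CPM; edgeR log2 fold change -0.86 with SE 0.18 and adjusted p = 0.00307). Leaving out each sample gave log2 values from -1.03 to -0.64, with adjusted p of at most 0.0160. With the offset per sample for GC content and length, which also takes out the part of the trend that differs between groups, its log2 fold change was -0.51 (adjusted p = 0.00281).

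Cd151, a tetraspanin that associates with laminin-binding integrins, was the steadiest of the 9 genes (chromosome 7, 141467362 to 141471481, plus strand). Controls measured 159, 181 and 176 CPM and L-733,060 samples 165, 165 and 177 CPM. The groups overlapped throughout, with a log2 fold change of -0.03 (SE 0.11, adjusted p in edgeR = 0.876). Leaving out each sample kept it between -0.09 and -0.01.

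Both plakin linkers had lower means with L-733,060, and neither passed the threshold. Plec encodes plectin, which joins the β4 chain to keratins (chromosome 15, 76170974 to 76231378, minus strand). It measured 452, 298 and 401 CPM in controls and 186, 166 and 367 CPM with L-733,060. Samples 1 and 2 lay below every control, and sample 3 lay within the control range. The log2 fold change was -0.68 (SE 0.26, adjusted p in edgeR = 0.0567), and it was -1.14 without sample 3 (adjusted p = 1.58e-05). Without control 2 it passed as well (-0.85, adjusted p = 0.0368). With an offset for GC content and length inside each group, Plec measured 393, 375 and 367 CPM in controls and 199, 218 and 262 CPM with L-733,060, without overlap (log2 fold change -0.74, adjusted p = 1.46e-04). With the offset per sample, which also removes the GC trend between groups, the value was -0.05 (adjusted p = 0.701). The difference in Plec therefore depends on how a GC trend between the groups is treated. The offset inside groups was fitted to deviations from the group means, so it narrows the spread inside groups and moves the group difference little. With it, the SE of Plec was 0.11. The lack of overlap and the smaller p with this offset are therefore no further evidence of a difference. Both offsets were estimated from the same 6 libraries, so their standard errors and p-values are too small to some degree.

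Dst encodes dystonin, whose epithelial form BPAG1e links collagen XVII and the β4 chain to keratins (chromosome 1, 33907888 to 34308662, plus strand). It measured 909, 787 and 1121 CPM in controls and 698, 889 and 823 CPM with L-733,060. The groups overlapped, and the log2 fold change was -0.22 (SE 0.15, adjusted p in edgeR = 0.266). Counts were made per gene, so forms cannot be told apart. GENCODE annotates 14 protein-coding transcripts of Dst and 21 of Plec. The noncoding Gm26788 lies on the other strand of Dst with 1.62% of its counts.

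**Figure D2:**
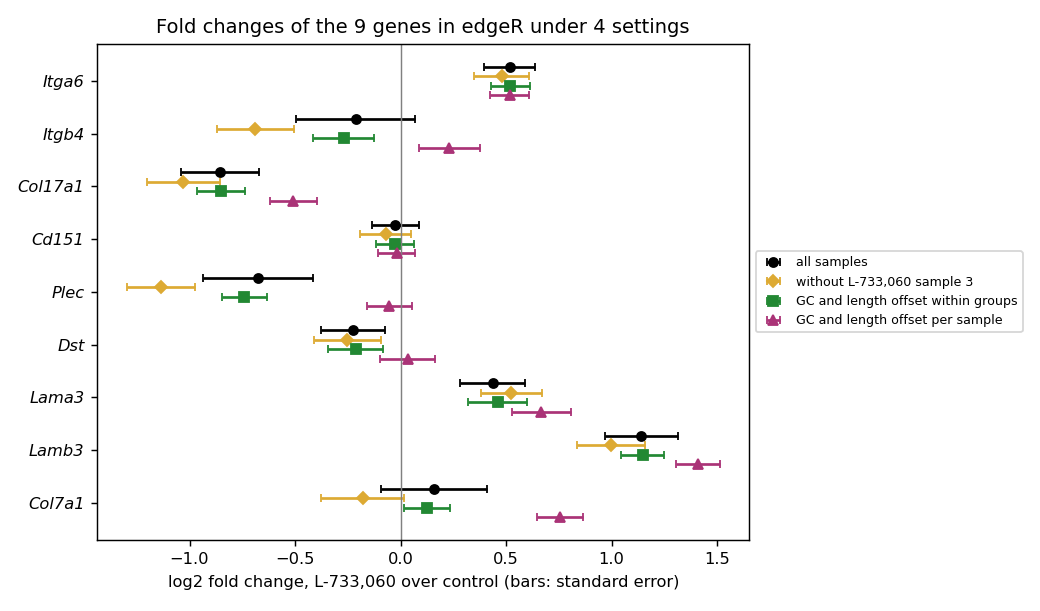
Log2 fold change of each of the 9 genes (horizontal axis, bars are standard errors) in edgeR with all samples, without L-733,060 sample 3, and with 2 offsets for GC content and length. Itga6, Cd151, Lamb3 and Lama3 keep their side of 0 in all 4 settings, as does Col17a1, while Itgb4 runs from -0.69 to 0.23, Plec from -1.14 to -0.05 and Col7a1 from -0.18 to 0.76.

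Both genes of laminin-332, the ligand of the α6β4 integrin, among the 9 rose. Lamb3 encodes the β3 chain, which is part of laminin-332 (chromosome 1, 193294353 to 193343878, plus strand). Its level was 49.0, 30.8 and 40.9 CPM in controls and 82.4, 79.6 and 104 CPM with L-733,060. The lowest L-733,060 sample was above the highest control, and Lamb3 was 2.21-fold higher (40.2 ± 9.13 to 88.7 ± 13.4 CPM; edgeR log2 fold change 1.14 with SE 0.17 and adjusted p = 2.84e-04). Leaving out each sample gave 0.96 to 1.30, and the offset per sample for GC content and length gave 1.41 (adjusted p = 1.10e-06). The noncoding Gm51741 overlaps Lamb3 on the other strand with 2.03% of its counts.

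Lama3 encodes the α3 chain (chromosome 18, 12333417 to 12583013, plus strand). It measured 204, 141 and 167 CPM in controls and 259, 237 and 197 CPM with L-733,060. Sample 3 lay just below control 1, so the groups overlapped. Lama3 was 1.35-fold higher (edgeR log2 fold change 0.44 with SE 0.15 and adjusted p = 0.0392). The call was lost without control 2 (adjusted p = 0.172), control 3 (0.124), L-733,060 sample 1 (0.149) or sample 2 (0.0797), and in limma on TPM.

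On the TPM scale Lama3 and Lamb3 had means of 29.2 and 19.7 in controls. With L-733,060 these means were 39.5 and 43.7.

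Col7a1 encodes collagen VII of the anchoring fibrils and had the lowest level of the 9 genes (chromosome 9, 108953586 to 108984875, plus strand). It measured 46.6, 26.2 and 36.9 CPM in controls and 37.7, 27.4 and 57.0 CPM with L-733,060. The spread inside each group was larger than the difference of the means, with a log2 fold change of 0.16 (SE 0.25, adjusted p in edgeR = 0.653). Its direction turned without control 2 (-0.05) or without L-733,060 sample 3 (-0.18). With the offset per sample for GC content and length it was 0.76 (adjusted p = 1.90e-04), and with the offset inside groups 0.12 (adjusted p = 0.371).

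The genes with the widest spread among the L-733,060 samples were those of highest GC content. Itgb4, Plec and Col7a1 have transcripts of 60.0%, 61.3% and 61.6% GC, and sample 3 exceeded the mean of samples 1 and 2 by 1.10, 1.06 and 0.82 on the log2 scale. Itga6 and Dst, at 48.9% and 49.5% GC, differed by 0.08 and 0.06. Lama3, at 51.7%, went the other way, by -0.33. Over the 1126 genes above 58% GC, sample 3 deviated from its group mean by a median log2 of 0.30 and sample 2 by -0.27. With the offset for GC content and length inside groups, which was fitted to these libraries, L-733,060 samples 1 to 3 measured 82.6, 73.0 and 110.0 CPM for Itgb4 and 40.6, 35.8 and 40.9 CPM for Col7a1. These values, like those of Plec with this offset, lay closer together than without it, as a fit to deviations from group means is made to do.

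**Figure D3:**
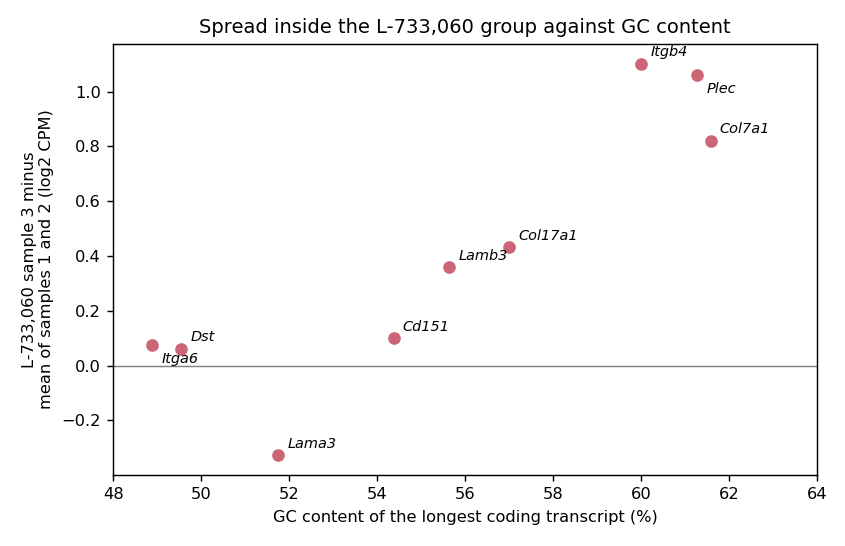
GC content of the longest coding transcript of each of the 9 genes (horizontal axis, %) against the log2 CPM of L-733,060 sample 3 minus the mean of samples 1 and 2 (vertical axis). The 3 genes above 60% GC lie between 0.82 and 1.10, and Lama3 lies at -0.33.

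Ordered by level per length, Col17a1 was first and Col7a1 last in both groups, and all 7 genes between them changed rank. In controls the mean TPM was highest for Col17a1 (339 ± 99.4), followed by Cd151 (178 ± 7.17) and Itga6 (123 ± 18.1), and the ranges of these 3 genes did not overlap. Dst (47.0 ± 9.82), Plec (45.9 ± 11.3), Itgb4 (35.9 ± 10.6), Lama3 (29.2 ± 6.64) and Lamb3 (19.7 ± 5.29) followed, with each range overlapping the next. Col7a1 was last at 8.31 ± 2.65 TPM, below the range of Lamb3. With L-733,060, Col17a1 (189 ± 44.5), Itga6 (178 ± 14.5) and Cd151 (177 ± 16.5) overlapped. Lamb3 stood at 43.7 ± 8.88 TPM, above Dst, Lama3, Itgb4 and Plec in mean, but its range overlapped that of each of them. Col7a1 stayed last at 9.36 ± 3.90 TPM.

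Ratios between partner genes inside a sample do not depend on library size, but can carry the GC trend of a library where the partners differ in GC content. The ratio of Lama3 to Lamb3 TPM was 1.46, 1.61 and 1.43 in controls and 1.10, 1.04 and 0.665 with L-733,060. Every L-733,060 sample was lower, by a log2 mean of -0.71. Col7a1 to Lamb3 was 0.441, 0.395 and 0.419 in controls and 0.213, 0.160 and 0.254 with L-733,060, again without overlap (log2 difference -1.03). An exact two-sided permutation test gave p = 0.1 for both ratios, the smallest that 3 against 3 samples can give (0.3 adjusted over 6 ratios). Leaving out each sample gave log2 differences of -0.85 to -0.48 for Lama3 to Lamb3 and -1.18 to -0.85 for Col7a1 to Lamb3. The transcripts of Lama3, Lamb3 and Col7a1 have 51.7%, 55.6% and 61.6% GC. With the GC and length offset per sample, their log2 fold changes were 0.67, 1.41 and 0.76, so Col7a1 and Lamb3 lay closer together than without it.

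The ratio of Itga6 to Itgb4 was 3.11, 4.29 and 3.29 in controls and 7.01, 8.76 and 3.84 with L-733,060. Samples 1 and 2 lay above all controls, and sample 3 lay inside the control range (log2 difference 0.81, exact permutation p = 0.2). The difference was 0.56 without L-733,060 sample 2 and 1.15 without sample 3. With the GC and length offset per sample, the log2 fold changes of Itga6 and Itgb4 were 0.52 and 0.23. Col17a1 to Itgb4 had means of 9.53 ± 0.921 and 6.66 ± 1.92 (p = 0.2), Dst to Plec of 1.04 ± 0.174 and 1.59 ± 0.653 (p = 0.3), and Cd151 to Itgb4 of 5.30 ± 1.74 and 6.49 ± 2.51 (p = 0.7), in controls and L-733,060 samples by the same exact test. In each of these 4 ratios the groups overlapped. The log2 difference of Dst to Plec was 0.53, with 0.24 without L-733,060 sample 2 and 0.87 without sample 3. That of Col17a1 to Itgb4 was -0.55, with -0.76 without sample 2 and -0.33 without sample 3. With the GC and length offset per sample, the log2 fold changes of Dst and Plec were 0.03 and -0.05, close to each other. Those of Col17a1 and Itgb4 were -0.51 and 0.23.

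**Figure D4:**
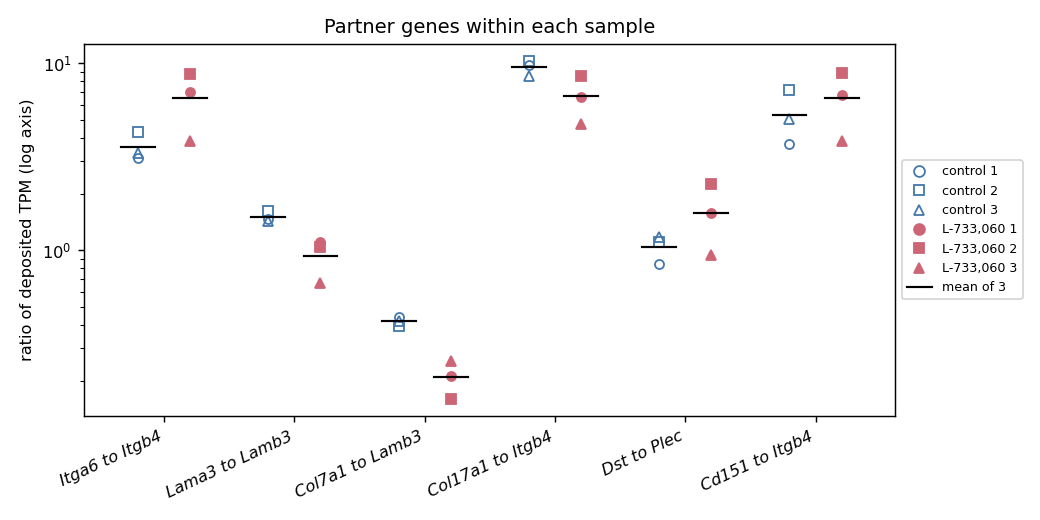
Ratio of the deposited TPM of partner genes (log axis) in each sample, with open symbols for controls, filled symbols for L-733,060 and bars at the mean of 3. The groups are apart for Lama3 to Lamb3 and for Col7a1 to Lamb3, and overlap for the other 4 ratios.

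Most other laminin chains described here were lower with L-733,060. Of 8 such chains, 1 rose and 5 fell, with a median log2 fold change of -1.13. Over all tested genes 21.4% rose and 19.9% fell, which are the shares to set beside the list counts here and below. The chain that rose was Lama4, of vessel basement membranes (log2 fold change 0.86). Lama5, the α chain of the broadly expressed laminin-511 and laminin-521, fell from 125 ± 19.7 to 46.6 ± 15.7 CPM (edgeR log2 fold change -1.42 with SE 0.21 and adjusted p = 2.23e-04). Lamb1, the β chain of laminin-111 and laminin-511, fell from 109 ± 23.6 to 37.9 ± 8.21 CPM (edgeR log2 fold change -1.53 with SE 0.19 and adjusted p = 6.47e-05). Lamc3 fell too, at levels near 1 CPM (log2 fold change -1.85).

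As a share of all α chain TPM, Lama3 made up 54.0, 51.2 and 50.0% in controls and 77.2, 77.6 and 63.8% with L-733,060. For Lamb3, the share of the 3 β chains was 25.4, 22.9 and 24.5% in controls and 56.4, 61.5 and 56.5% with L-733,060. Lamb1 made up 48.5 ± 2.40% of the β chains in controls and 18.1 ± 2.12% with L-733,060. The groups did not overlap in any of these shares, which were computed after the values of the single genes were known, and 3 against 3 samples cannot go below an exact permutation p of 0.1.

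**Figure D5:**
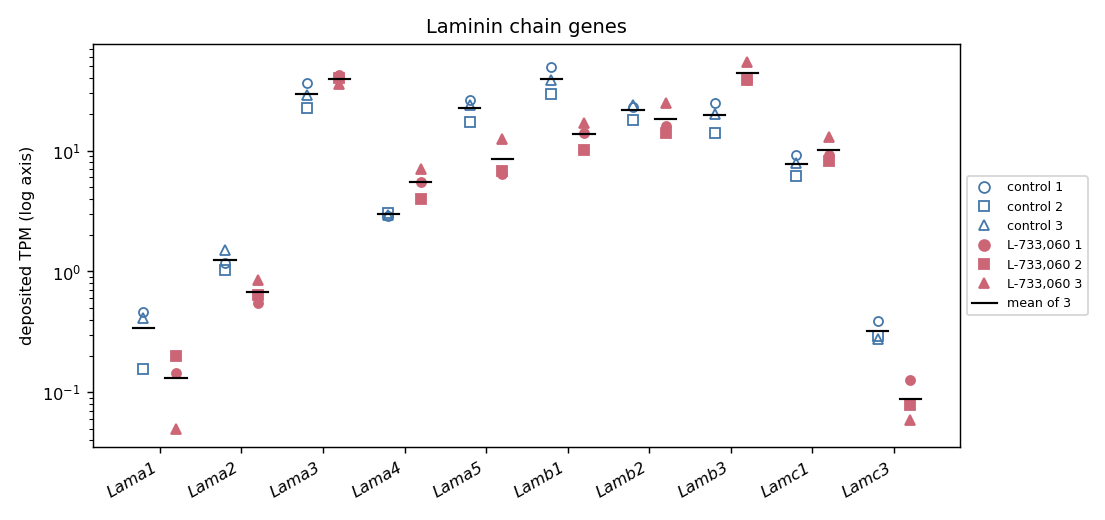
Deposited TPM (log axis) of 10 laminin chain genes in each sample, with open symbols for controls, filled symbols for L-733,060 and bars at the mean of 3. Values of Lamb3 are higher in all L-733,060 samples than in all controls, and those of Lama5 and Lamb1 are lower.

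Among laminin receptors and tetraspanins beyond the 9 genes, 2 of 10 rose and 5 fell. Itgb1, the β1 chain that pairs with α3 and α6 in other laminin receptors, was 2.28-fold higher (235 ± 31.2 to 537 ± 63.0 CPM; edgeR log2 fold change 1.19 with SE 0.14 and adjusted p = 4.20e-05). The tetraspanin Cd81 rose (log2 fold change 0.95), while the tetraspanin Cd82 (-1.07) and the proteoglycan syndecan 1, Sdc1 (-0.72), fell (edgeR adjusted p at most 8.79e-04). Itga3, the α3 chain of the other main laminin-332 receptor, named after its values were seen, had a log2 fold change of -0.35 (edgeR adjusted p = 0.195). It passed without L-733,060 sample 3 (-0.64, adjusted p = 0.00378) and with the replicate block (-0.38, 0.0431). Without the filter (-0.37, 0.0356) and with the GC and length offset inside groups (-0.38, 0.0107) it passed as well. These settings add little, because the fit without the filter gave the 9 genes nearly equal standard errors and the offset narrows spread by construction. Itga3 was not called with the offset per sample. The GC content of Itga3 is 57.9%. In TPM, Itga6 was 80.4 ± 1.79% of Itga3 and Itga6 together in controls and 88.3 ± 2.82% with L-733,060.

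All 5 other plakins passed the threshold. The desmosomal linker desmoplakin, Dsp (-0.91), the cornified envelope plakins envoplakin, Evpl (-1.16), and periplakin, Ppl (-0.79), and epiplakin, Eppk1 (-0.79), fell on the log2 scale (edgeR adjusted p at most 0.0100). Eppk1 was not called without control 1 (-0.58, adjusted p = 0.0593) or in limma on log2 TPM (-0.76, adjusted p = 0.0518 with pseudocount 0.1, and -0.66, adjusted p = 0.0581 with pseudocount 1). Macf1, the linker of actin and microtubules most similar to Dst, rose (log2 fold change 0.45).

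Of 12 focal adhesion linkers, 4 rose and 3 fell. The α-parvin gene Parva (-0.71), the talin gene Tln2 (-1.10) and kindlin 1, Fermt1 (-0.55), an epithelial activator of integrins, fell. Vinculin, Vcl, rose (log2 fold change 0.56, adjusted p in edgeR = 0.00399). Over all 12 linkers the median was -0.02.

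Genes that process or fold these proteins mostly rose, 10 of 14 tested, with 1 lower and a median log2 fold change of 0.80. Bmp1, a protease that trims collagen VII, was 2.25-fold higher (21.2 ± 2.71 to 47.8 ± 6.13 CPM; edgeR log2 fold change 1.17 with SE 0.15 and adjusted p = 6.79e-05). The sheddases Adam9 and Adam10, which can release the outer part of collagen XVII, had log2 fold changes of 1.05 and 0.87 and both rose (adjusted p in edgeR at most 6.01e-05). Tgm2, transglutaminase 2, was the member that fell, 9.94-fold (811 ± 144 to 81.6 ± 8.78 CPM; edgeR log2 fold change -3.31 with SE 0.16 and adjusted p = 8.18e-08). Over all 5 lists, 18 of 49 tested genes rose and 18 fell, beside 21.4% and 19.9% of all tested genes.

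Markers of the cells that carry hemidesmosomes were present in all samples. The summed level of 4 basal epithelial markers (Krt5, Krt14, Krt15, Trp63) was 31808 to 37430 CPM in controls and 31091 to 38324 CPM with L-733,060, with 1 of 4 higher (Krt14) and 2 lower. Krt14 was 9.27-fold higher (1665 ± 409.7 to 15440.1 ± 2547 CPM; log2 fold change 3.21, adjusted p in edgeR = 4.51e-07), while Krt5 was 1.81-fold lower (log2 fold change -0.86) and Krt15 1.48-fold lower (-0.57), so the similar sums hold opposite movements. Krt15 was not called without control 3 (-0.44, edgeR adjusted p = 0.0718) or without L-733,060 sample 1 (-0.52, adjusted p = 0.0507). Sums of corneal differentiation markers (Krt12 and Aldh3a1 the most abundant over all samples) went from 28377 to 38238 CPM in controls to 5373 to 5957 CPM. Of these 4 markers, 3 were lower and 1, Clu, was higher. Clu, named after its values were seen, rose 4.52-fold (597 ± 65.9 to 2698 ± 787 CPM, edgeR adjusted p = 6.39e-06). With L-733,060, Clu had the highest mean of the 4, so these sums hold opposite movements too. Sums of conjunctival markers (Krt13, Krt4) went from 9878 to 11341 CPM to 22919 to 28287 CPM, with 5 of 5 higher. In bulk tissue, fewer cells of a type and less RNA per cell cannot be told apart, and the part of these shifts in the 9 genes was not tested.

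Some of the other cell types that limbus tissue can hold also express members of the 9 genes. Endothelial markers, of cells that carry α6, summed to 31.8 to 49.4 CPM in controls and 44.2 to 61.7 CPM with L-733,060, with 2 of 6 higher. Schwann cell markers, of cells that carry α6β4, summed to 249 to 287 CPM and 181 to 227 CPM, with 2 of 4 tested lower, and were mostly Mbp, with Ngfr next. Skeletal muscle markers, of cells rich in plectin, stayed at 0.879 to 2.39 CPM in all samples. Stromal markers summed to 2351 to 3391 CPM and 2042 to 2736 CPM, with 4 of 7 higher and 3 lower. Smooth muscle markers went from 29.4 to 30.6 CPM to 146 to 213 CPM, with 3 of 4 tested higher and 1 lower. Acta2 carried most of that sum (12.2 ± 1.86 to 145 ± 30.3 CPM), and Myh11, the smooth muscle myosin, named after its values were seen, fell (log2 fold change -0.96, edgeR adjusted p = 0.0210). Leukocyte markers went from 48.5 to 57.4 CPM to 249 to 495 CPM, with 6 of 6 tested higher, and melanocyte markers from 8.74 to 16.6 CPM to 4.60 to 8.52 CPM, with 2 of 3 tested lower. Their part in the results was not tested.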

How the data were processed

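Poly(A)-selected RNA of 6 limbus samples was sequenced. Per the submitters' processing notes, bcl2fastq, HISAT2 2.1.0 and HTSeq 0.11.2 were used with mm10; no settings, strand mode or annotation release are given there. The authors deposited whole-number read counts per gene. The authors also deposited TPM per gene, and in each sample these follow from the count and the gene length (other) in the same file.

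Genes were kept by filterByExpr (minimum count 10, minimum total 15), which left 15712 and removed 23377. edgeR 4.0.16 in R 4.3.3 scaled libraries by TMM and compared L-733,060 with control over all tested genes (quasi-likelihood F test, two-sided, Benjamini-Hochberg, threshold 0.05). The standard error is the absolute log2 fold change over the square root of F. In a sample, 3 counts are 0.128 to 0.161 CPM. Samples of the same group differed by a chi-square of 15.0 to 38.7 per degree of freedom, so no sample was a repeat deposit. Precision is limited by 3 samples a group, with a common biological coefficient of variation of 0.157, and no molecular identifiers are described. Partner ratios were compared by an exact permutation test.

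The labels do not say that equal replicate numbers share an animal, batch or day, so the samples were treated as unpaired. Deviations from group means correlated at -0.02, 0.27 and 0.13 between samples of equal number. These deviations also follow GC content, so they cannot tell whether samples were paired. Alternatives were DESeq2 1.42.0 size factors and its Wald test, no filter, protein-coding genes only, a replicate block, limma 3.58.1 on log2 TPM plus 0.1 or 1, and leaving out each sample. Offsets for GC content and length were chosen after seeing the data. They are natural splines fitted to deviations of log2 CPM in 11203 genes. They were applied to 14705 genes (93.6%) matched by symbol to GENCODE vM21, using the longest protein-coding transcript. For the offset inside groups the deviations were from the group mean, and for the offset per sample from the mean of all samples. A fit on the matched genes without an offset was run too.

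The members and lists were chosen with earlier results of these data known. Named are all 9 genes, of each attachment list up to 4 called genes of smallest p and exceptions, and up to 2 most abundant markers per list. Names beyond that (such as Itga3, Macf1, Krt14, Clu and Myh11) were chosen after their values were seen. A gene of the laminin chain list is not reported here and is left out of the counts of that list.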

Additional observations from a re-analysis of the deposited data

How the results depend on the processing

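Over the alternatives, 125 of 144 recomputed fold changes of the 9 genes kept their direction and their side of the threshold. Col17a1, Itga6, Lamb3 and Cd151 did so in every alternative run. The 144 values include a fit on genes with known GC content and length but no offset, which nearly repeats the main fit. They also include the offset inside groups, which by construction moves fold changes little. Lama3 was called with all samples, but in limma on log2 TPM its values of 0.46 (pseudocount 0.1) and 0.44 (pseudocount 1) were not called. Plec was called lower with DESeq2 size factors (-0.68, adjusted p = 0.0492), without the filter (-0.69), with the replicate block (-0.75) and with the GC and length offset inside groups (-0.74), which made 2 of the 9 genes lower in place of 1. Without the filter, standard errors of the 9 genes ran only from 0.138 to 0.148, against 0.112 to 0.282 in the main fit. That run thus hardly held the spread of single genes, and the offset inside groups narrows spread by construction. With the GC and length offset per sample Itgb4 (0.23) and Dst (0.034) turned direction and Col7a1 (0.76) was called. The cause was not tested. Leaving out each sample gave 1 to 3 of the 9 genes lower and 2 to 3 higher, with log2 fold changes from -0.69 to 0.035 for Itgb4, 0.30 to 0.58 for Lama3, -1.14 to -0.47 for Plec and -0.18 to 0.37 for Col7a1. Ngfr (0.08) turned to -0.13 without control 2 and -0.33 without L-733,060 sample 3. The replicate block, a pairing that the labels do not state, gave 3609 higher and 3462 lower genes against 3367 and 3129. Apart from Plec, it changed the call of none of the 9 genes. Without L-733,060 sample 2 the log2 difference of Cd151 to Itgb4 went from 0.26 to -0.003. Among other genes named, Eppk1, Krt15, Mbp and Itga3 changed call in at least 1 alternative.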

Other observations

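Across the 6 samples, the genes whose log2 CPM followed Itgb4 most closely, among 14182 genes with mean log-CPM above 0, were 0610009E02Rik, Bptf, a chromatin remodelling factor, and the plexin Plxnb1, with Pearson r of 0.995, 0.992 and 0.992. None of these 3 genes passed the threshold between the groups. For Lamb3 they were Stmn1, a microtubule regulator, Trim62 and Cd276, with r of 0.998, 0.997 and 0.994, and all 3 rose (log2 fold changes 0.59, 1.14 and 1.12). These values describe 6 libraries that share depth and base composition effects, with the best matches picked from many genes.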
